A study of Homo sapiens with 3 samples.

Results

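Integrins are receptors made of 1 alpha and 1 beta chain that hold cells to the extracellular matrix and tie it to the actin or keratin cytoskeleton. Laminins are trimers of an alpha, a beta and a gamma chain that build the sheet of the basement membrane and are themselves ligands of several integrins. The subunit genes were taken by name: every protein-coding gene called ITGA or ITGB with a number, L, M, X, D, E, V or 2B, or LAMA, LAMB or LAMC with a number. That gave 29 of the 23379 genes in the files, or 29 of 14117 protein-coding genes, namely 14 alpha integrins, 6 beta integrins and 9 laminin chains. A further 9 subunit genes of the annotation (ITGA8, ITGA9, ITGAL, ITGAX, ITGB6, ITGB7, LAMA4, LAMB4 and LAMC3) had no row and are not analysed here. Of the 29 genes, 15 had a mean of at least 1 FPKM over the 3 libraries (10 integrins and 5 laminin chains) and 14 lay under it.

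All 3 libraries are labelled DU145, a human prostate cancer cell line, and RNA sequencing was done once per group. The negative control is called P-Enter, the WT cells overexpressed wild-type BRAF, and the L597R cells received plasmids of the mutant BRAF. BRAF is a kinase of the RAS to ERK signalling pathway. The labels do not give the plasmid's promoter, the time after transfection or whether cells were pooled or 1 clone. Nor do they say whether the libraries come from separate cultures. Values are FPKM, the reads of a gene scaled to its length and to the library's counted reads. Where a sentence gives 3 values of a gene without naming libraries, they are P-Enter, WT and L597R in that order. With 1 library per group there is no replicate error and no test: each interval below is the exact 95% Clopper-Pearson interval of a ratio of reads, covers counting error only, and compares 2 libraries, not 2 conditions.

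The gene that was introduced served as the check of the labels. BRAF was at 1.65, 4.405 and 9.595 FPKM, from 514, 1617 and 3733 reads. Its order therefore followed the labels, although a gene total does not separate the mutant from the wild-type allele. Depth was 13294004, 15665132 and 16603676 counted reads. Of 13 markers of prostate epithelium, 7 had a row, among them KRT18 at 34.3 to 37.6 and KRT7 at 26.9 to 28.95 FPKM. KRT8 lay between 0.534 and 0.623 FPKM, CDH1 was listed with a single read, in the control library, and KRT5, EPCAM, TP63, KLK3 and TMPRSS2 had no row. DU145 is usually described as expressing CDH1, EPCAM and KRT8, so these values go against that description, and the identity of the cells was not checked in another way. Markers of fibroblasts, endothelium, leukocytes, platelets and muscle summed to at most 0.508 FPKM per list in any library, so these defining markers were at or near 0 in all 3 groups.

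Among the alpha integrins, the laminin-binding chain ITGA3 (ENSG00000005884, chromosome 17, 50055968 to 50090481, GRCh38) held most of the signal. It was at 117, 109.8 and 93.8 FPKM, above 96.8%, 96.6% and 96% of the protein-coding genes measured at a mean of 1 FPKM. ITGA3 made up 69.6%, 66.5% and 60.9% of the summed FPKM of all 14 alpha chains. The highest level was thus in P-Enter and the lowest in L597R, and the read ratio of L597R to P-Enter was 0.805 (0.787 to 0.823).

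ITGA6, the other laminin-binding chain above 1 FPKM and a partner of ITGB4 in hemidesmosomes, ran the other way. It was at 21.8, 25.3 and 26.2 FPKM. Both BRAF libraries were above the control, with read ratios of 1.16 (1.097 to 1.235) for WT and 1.20 (1.14 to 1.28) for L597R. Their own ratio of 1.03 (0.981 to 1.09) did not leave out 1. ITGA7, the laminin receptor of muscle, had 18, 9 and 16 reads.

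ITGAV (ENSG00000138448, chromosome 2, 186590065 to 186680901) pairs with several beta chains to bind the RGD motif of fibronectin, vitronectin and latent TGF-beta. It had the largest difference of the 15 measured subunits between L597R and P-Enter: 9.755, 11.5 and 14.6 FPKM, from 1066, 1479 and 1995 reads. WT was 1.18 times the control (1.09 to 1.28), L597R was 1.498 times the control (1.39 to 1.62), and L597R was 1.27 times WT (1.19 to 1.36). ITGA5, the fibronectin receptor chain, was nearly level at 10.5, 10.3 and 9.86 FPKM, with 1 inside each of its 3 intervals. By the deposited lengths, ITGAV and ITGA5 were indistinguishable in P-Enter (ratio of ITGA5 to ITGAV 1.08, 0.990 to 1.18), whereas ITGA5 was the lower in L597R at 0.675 (0.628 to 0.725) times ITGAV. With the longest coding transcript the ratio was 1.53, 1.27 and 0.959, so which of the pair is higher depends on the length, while its order over the libraries does not.

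ITGA2, a collagen receptor chain, was at 3.78, 4.17 and 4.87 FPKM, and L597R was 1.29 times P-Enter (1.14 to 1.46). The other collagen-binding chains were low. ITGA10 had 39, 35 and 38 reads, ITGA11 had 4, 1 and 3, and ITGA1 had 70, 100 and 81 at 0.263 to 0.344 FPKM. ITGA1 holds PELO within its bounds on the same strand, a gene at 16.6 to 18 FPKM, so its few reads are uncertain.

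Of the chains known from leukocytes, ITGAE was at 3.98, 3.17 and 3.67 FPKM, and its WT value was the lowest (0.798 times P-Enter, 0.684 to 0.930). Its locus holds HASPIN, read from the opposite strand at 9.58 to 10.8 FPKM, and the strand setting of the counting is not given in the sources used here. ITGB2, which pairs with the leukocyte alpha chains, was at 3.52, 2.98 and 2.88 FPKM from 321, 321 and 328 reads. It was lower in both BRAF libraries, at 0.849 (0.725 to 0.994) and 0.818 (0.699 to 0.957) times P-Enter. Its usual partners ITGAM and ITGAD had at most 4 reads in any library, ITGAL and ITGAX had no row, and ITGA4 and ITGA2B had at most 3 reads.

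The beta chains were led by ITGB1, the common partner of most alpha chains (ENSG00000150093, chromosome 10, 32900319 to 33005792). It was at 76.6, 83.9 and 100.1 FPKM, from 14825, 19132 and 24189 reads. The 3 values were in that order with intervals clear of 1: WT was 1.095 times the control (1.07 to 1.12) and L597R 1.31 times (1.28 to 1.33). ITGB1 held 59.6%, 62.8% and 68.5% of the beta chain FPKM as deposited, and 78%, 80.2% and 83.9% with exon lengths from GENCODE 29. ITGB1P1, a processed copy of 609 bases identical to the ITGB1 transcript over its length, carried 669, 855 and 1009 reads, 4.51%, 4.47% and 4.17% of those given to ITGB1. How reads were divided between the copies is not given in the sources used here, so the level of ITGB1 is uncertain.

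ITGB5, a partner of ITGAV in the vitronectin receptor, was at 35.4, 34.1 and 32.4 FPKM, and L597R was 0.913 (0.870 to 0.959) times P-Enter. Its share of beta chain FPKM was 27.6%, 25.5% and 22.1% as deposited, and 15.1%, 13.6% and 11.3% with exon lengths, which differ for ITGB1. ITGB4, the chain that anchors hemidesmosomes to keratin, was at 12.8, 12.45 and 10.7 FPKM. L597R was 0.834 times P-Enter (0.769 to 0.905), while the interval for WT, 0.897 to 1.052, held 1. GALK1 overlaps ITGB4 on the opposite strand, at 7.1, 6.47 and 5.26 FPKM, and its part in the ITGB4 values was not tested. The other partners of ITGAV were scarce: ITGB3 had 6, 4 and 9 reads and ITGB8 had 14, 29 and 16.

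**Figure D1:**
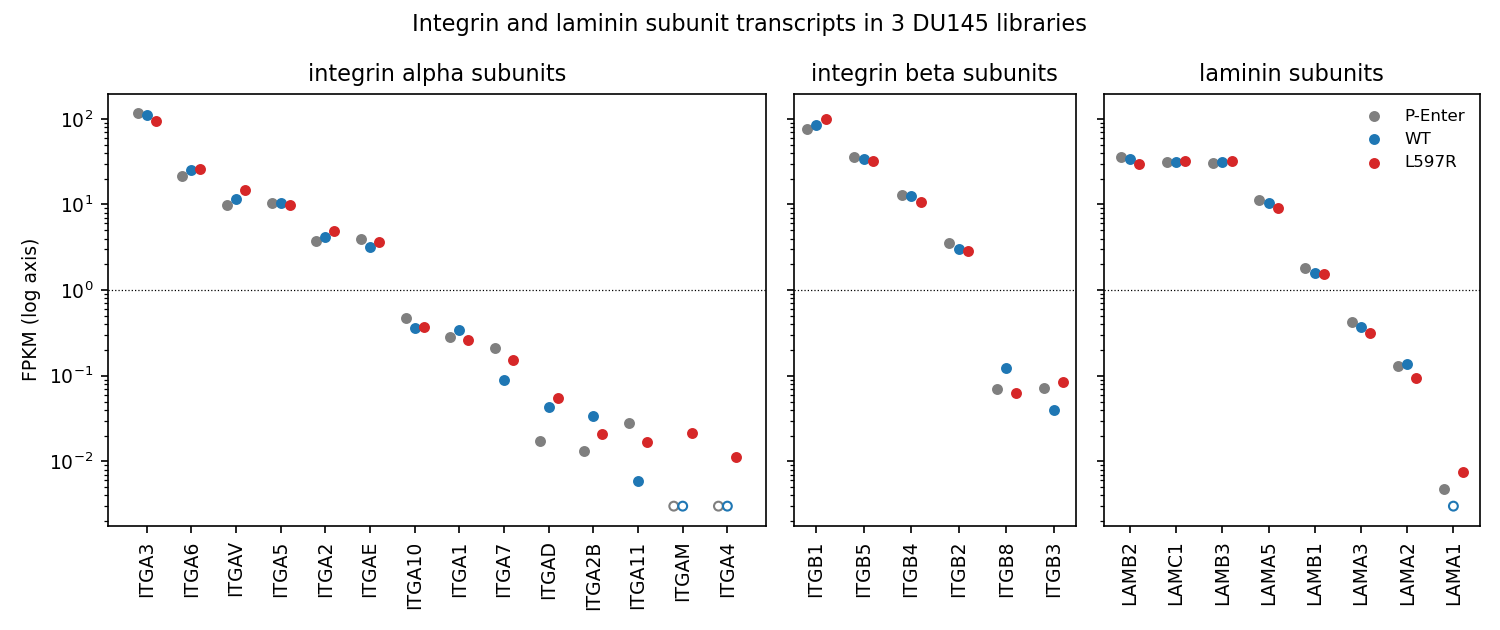
Level of 28 of the integrin and laminin subunit genes in P-Enter, WT and L597R, in FPKM on a log axis, 1 point per library; open circles at the bottom are genes listed at 0, and the dotted line is 1 FPKM. ITGA3 and ITGB1 lie highest, and the subunits under the line have at most 100 reads in any library.

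Laminin chains came from a shorter list of genes. LAMA5, the alpha chain found in most adult epithelial basement membranes, was at 11.3, 10.4 and 9.17 FPKM and made up 95.3%, 95.3% and 95.7% of the alpha chain signal. Its level was lowest in L597R (0.809 times P-Enter, 0.761 to 0.859) and between the others in WT (0.914, 0.862 to 0.970). ADRM1 overlaps LAMA5 on the opposite strand at 47.0 to 50.3 FPKM.

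The beta chains LAMB2 and LAMB3 were of like level. LAMB2, a beta chain that joins LAMA5 and LAMC1, was at 35.6, 34.1 and 29.8 FPKM. LAMB3, which belongs to an epidermal trimer with LAMA3, was at 30.6, 31.25 and 32.0 FPKM. LAMB2 was lower in L597R than in P-Enter (0.837, 0.798 to 0.879), and LAMB3 gave 1.045 (0.984 to 1.11), which did not leave out 1. LAMB2 made up 52.3%, 51% and 47% of laminin beta FPKM and LAMB3 45%, 46.7% and 50.5%.

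LAMB1, the alternative to LAMB2 in many trimers, was far lower at 1.80, 1.58 and 1.55 FPKM, and L597R was 0.866 (0.759 to 0.987) times P-Enter. It overlaps DLD on the opposite strand, at 15.8 to 19.0 FPKM. LAMC1, the gamma chain of most trimers, was level at 31.8, 31.45 and 31.9 FPKM, with a ratio of 1.01 (0.962 to 1.051) between L597R and P-Enter.

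LAMA3 and LAMB3, chains of the same trimer, were not at like levels. LAMA3 had 81, 84 and 75 reads, beside 1890, 2275 and 2467 for LAMB3. Per length, LAMB3 was 72.8 (58.2 to 92.0), 84.4 (67.9 to 106) and 103 (81.5 to 131) times LAMA3. Of the alpha chains apart from LAMA5 and LAMA3, LAMA2 had 18, 22 and 16 reads and LAMA1 had 1, 0 and 2. A count of 0 in WT allows up to 3 reads.

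Levels of different genes can be compared only through the gene length used, and that length mattered for several subunits. The deposited FPKM used 14561 bases for ITGB1, 2.42 times the 6011 bases of its exons in GENCODE 29, and 18592 bases for LAMB1, 2.28 times its 8140. Among 9341 protein-coding genes with recovered reads, 179 (1.92%) had a length over 2 times their exons. With the exon length, ITGB1 was at 185.5, 203.2 and 242.4 FPKM and LAMB1 at 4.10, 3.60 and 3.55. With the longest coding transcript in its place, ITGA3 (233.8 FPKM in P-Enter), ITGB2 (7.598), ITGAE (6.805) and ITGA5 (17.5) also lay over 1.5 times their deposited level. The order of the top pair turned with it: ITGA3 was 1.52, 1.31 and 0.938 times ITGB1 as deposited, and 0.629, 0.540 and 0.387 times with exon lengths. That ratio was highest in the control and lowest with the mutant by either length, since each gene has the same length in all libraries.

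**Figure D2:**
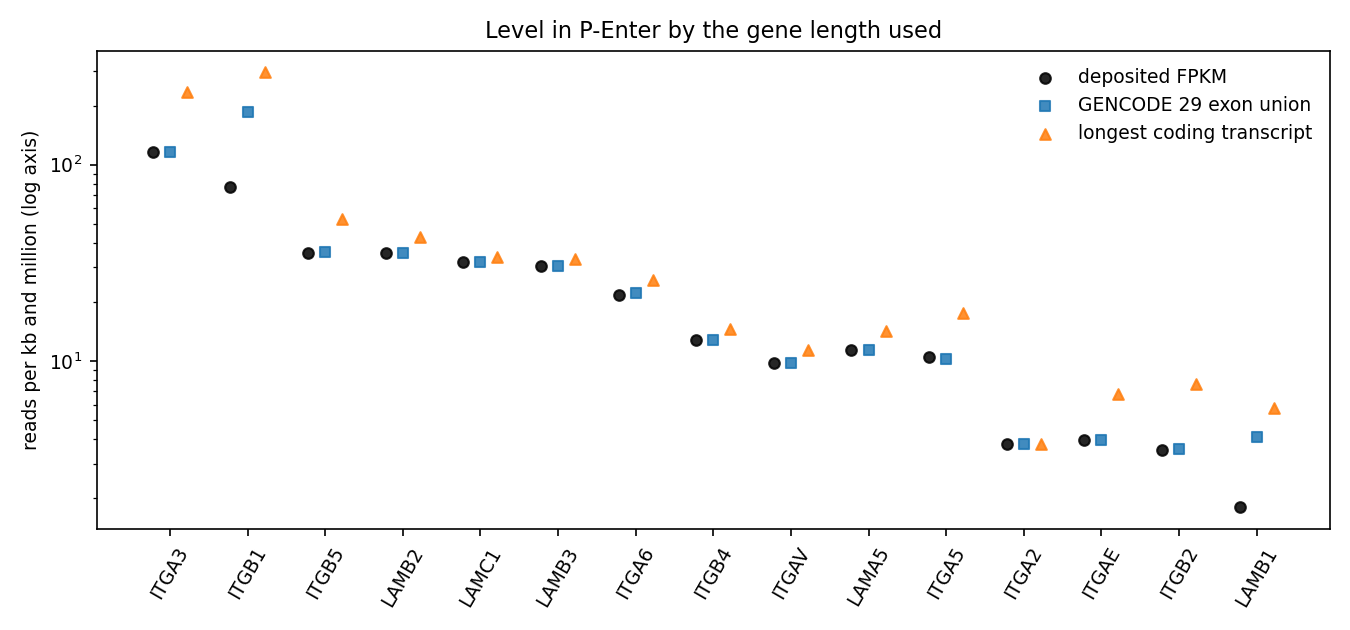
Level in P-Enter of the 15 measured subunits, in FPKM on a log axis, by the gene length used: the one behind the deposited FPKM, the exon union of GENCODE 29, and the longest coding transcript. ITGB1 and LAMB1 stand out, at 76.6 and 1.80 FPKM as deposited and 185.5 and 4.10 with exon lengths.

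In order of deposited level, P-Enter ran ITGA3, ITGB1, LAMB2, ITGB5, LAMC1, LAMB3, ITGA6, ITGB4, LAMA5, ITGA5, ITGAV, ITGAE, ITGA2, ITGB2 and LAMB1. Neighbours that did not differ beyond counting error were LAMB2 and ITGB5, LAMC1 and LAMB3, LAMA5 and ITGA5, ITGA5 and ITGAV, ITGAE and ITGA2, and ITGA2 and ITGB2. In L597R ITGB1 came before ITGA3, and ITGAV stood above ITGB4, ITGA5 and LAMA5.

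Partners within a receptor or trimer therefore differed in proportion between libraries. The ratio of ITGA6 to ITGB4 was 1.698 (1.58 to 1.83) in the control, 2.03 (1.90 to 2.17) with wild-type BRAF and 2.45 (2.29 to 2.62) with the mutant. The ratio of ITGAV to ITGB5 was 0.275 (0.257 to 0.295), 0.336 (0.316 to 0.358) and 0.452 (0.427 to 0.477) in the same order. In both pairs the 3 intervals did not overlap. The GC content was 43.2% for ITGA6 and 62.9% for ITGB4, and 39.0% for ITGAV and 54.6% for ITGB5. Differences between these libraries also varied with GC content over all protein-coding genes (below). The part of GC content in these ratios was not tested. LAMA5 was 0.357, 0.330 and 0.287 times LAMC1, lowest in L597R. LAMB3 to LAMC1 was 0.963, 0.994 and 1.001, and its intervals overlapped in all 3.

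By the size rule, a log2(FPKM + 1) difference of at least 1, 0 of the 15 measured subunits differed in any comparison. That rule took 0.118% of 9358 protein-coding genes when WT was set against P-Enter, 0.118% when L597R was, and 0.0748% between the BRAF libraries. The highest difference was 0.54 for ITGAV and the lowest -0.31 for ITGA3, both L597R against P-Enter. The median over the 15 subunits was -0.04 (WT to control), -0.09 (L597R to control) and -0.01 (L597R to WT), beside 0.00, -0.01 and 0.01 over all protein-coding genes. The comparisons with P-Enter share that library.

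For read ratios, the interval did not include 1 for 7 of 15 subunits between WT and P-Enter, beside 27.9% of protein-coding genes (15.3% higher and 12.7% lower). The 3 higher were ITGB1, ITGA6 and ITGAV, and the 4 lower were ITGA3, LAMA5, ITGAE and ITGB2. Between L597R and P-Enter it did so for 11, beside 53.7% (28.0% higher and 25.7% lower): ITGB1, ITGA6, ITGAV and ITGA2 were higher, and ITGA3, ITGB5, LAMB2, ITGB4, LAMA5, ITGB2 and LAMB1 lower. Between L597R and WT it did so for 8, beside 41.5% (24.0% higher and 17.5% lower), with ITGB1, ITGAV and ITGA2 higher and ITGA3, ITGB5, LAMB2, ITGB4 and LAMA5 lower. The subunits had a median of 1890 reads in P-Enter against 607 over the protein-coding genes, and a deeper gene leaves out 1 at a smaller difference.

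The subunits that were higher and lower in L597R also differed in base composition. Across the 15, Spearman's rho between the difference and GC content was -0.62 (WT to control), -0.83 (L597R to control) and -0.81 (L597R to WT). Across 9358 protein-coding genes of the same libraries it was -0.46, -0.70 and -0.60. For L597R against P-Enter, the 6 subunits under 50% GC had a median difference of 0.28 and the 9 at 50% or more one of -0.22. Protein-coding genes under 45% GC had a median of 0.21, and those of 55 to 60% one of -0.14. Whether GC content has a part in the subunits' differences was not tested.

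**Figure D3:**
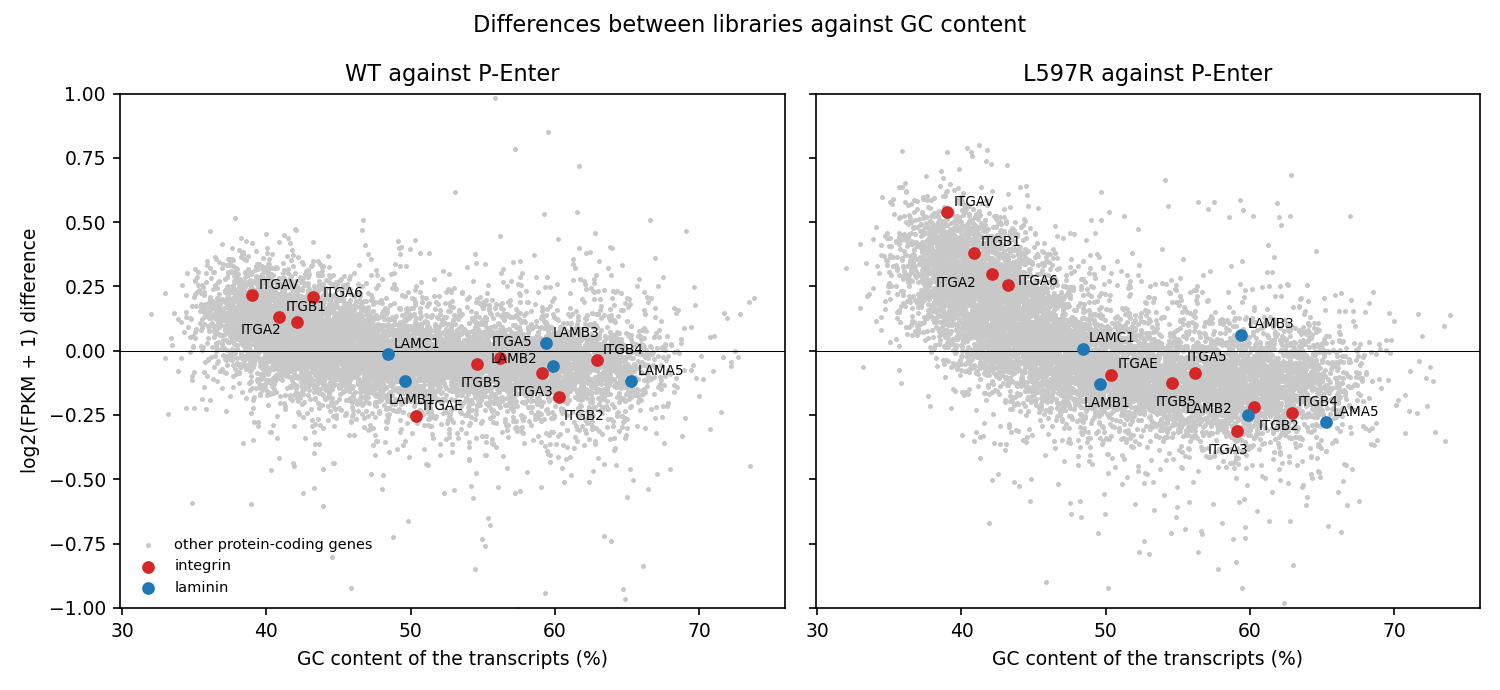
log2(FPKM + 1) difference from P-Enter against the GC content of each gene's transcripts in percent, for WT and for L597R. The 15 measured subunits are named (integrins red, laminins blue) over the protein-coding genes in grey. The axis of ±1 leaves out 11 genes in each panel. The subunits follow the downward slope of the grey points: ITGAV (39.0% GC) is at 0.54 and ITGA3 (59.1% GC) at -0.31 for L597R.

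A regression on GC content, gene length and level over the protein-coding genes removed 19.1%, 49.7% and 32.9% of the variance of the 3 comparisons. The subunits' residual medians were -0.01, -0.01 and 0.02. For L597R against P-Enter, the residual was 0.25 for ITGAV, 0.21 for LAMB3, 0.19 for ITGB1, 0.12 for ITGA6, -0.11 for LAMB2, -0.16 for ITGA3 and -0.20 for LAMA5. Those 7 were the subunits whose read interval left out the fold given by the regression, beside 33.3% of protein-coding genes (16.5% above and 16.8% below). LAMB3 is GC-rich (59.4%), and the regression put its fold at 0.8855, below the measured 1.045. ITGA2, ITGB5, ITGB4, ITGB2 and LAMB1 left out 1 but not the regression's fold. For WT against P-Enter, 6 left out that fold (ITGB1, LAMB3 and ITGA6 above, ITGA3, LAMA5 and ITGAE below), beside 20.1% (9.82% above and 10.3% below). For L597R against WT, 7 did so (ITGB1, LAMB3, ITGAV and ITGAE above, ITGA3, LAMB2 and ITGB4 below), beside 26.5% (13.6% above and 12.9% below). Among the subunits the residuals kept a rho with GC of -0.50, -0.75 and -0.58. Over all protein-coding genes the rho of the residuals was -0.01, 0.00 and 0.00.

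**Figure D4:**
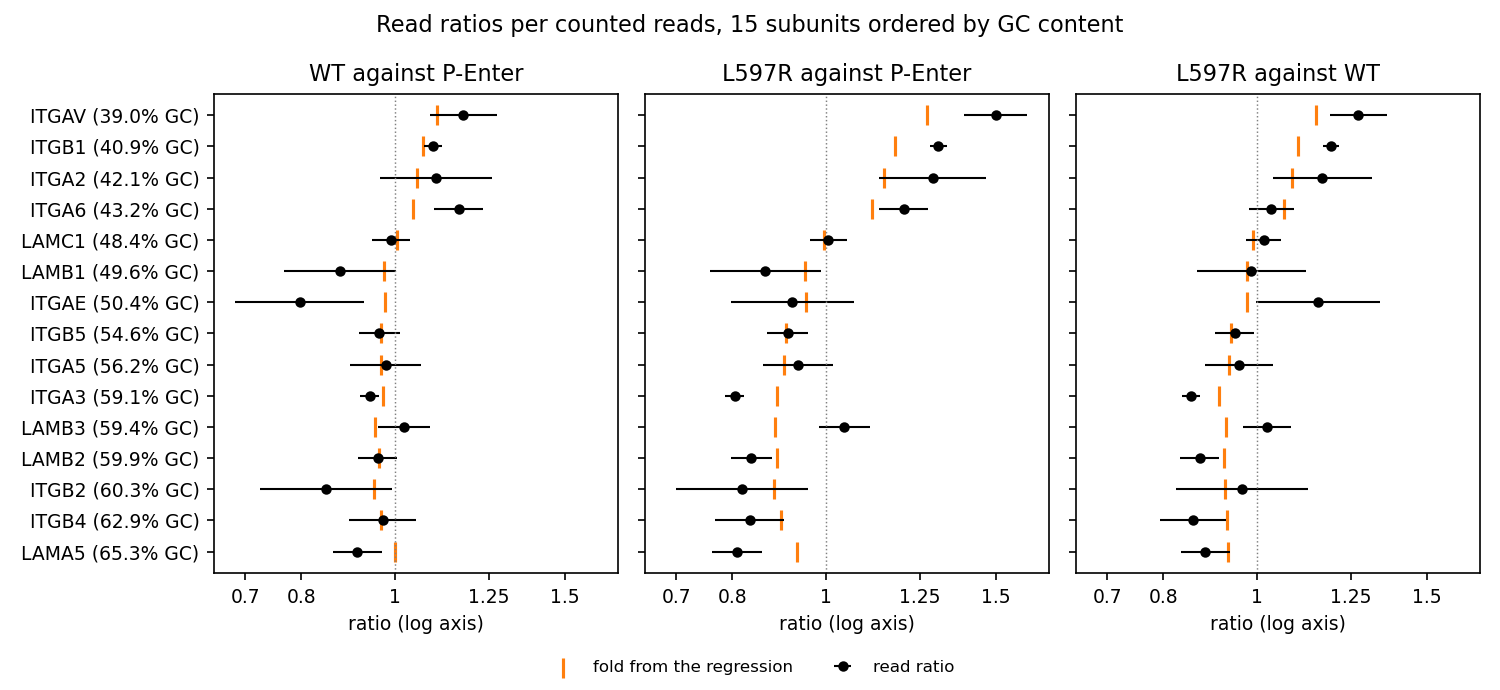
Read ratio of the 15 measured subunits in the 3 comparisons, on a log axis, ordered by GC content, with exact 95% intervals for counting error; orange marks are the fold given by the regression on GC content, length and level. ITGAV and ITGB1 lie right of both 1 and their marks for L597R against P-Enter (1.498 and 1.31), and ITGA3 lies left of both (0.805).

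To show what stands in front of subunits on either side of the regression between L597R and P-Enter, the upstream stretches of ITGB1, ITGAV and LAMB3 (above its fold) and of LAMB2 and LAMA5 (below it) are given 5′ to 3′ from RefSeq promoters (GRCh38.p14). They are cut to bases outside GENCODE exons: chr10:32958233-32958480 on the minus strand, chr2:186589806-186590055 on the plus strand, and chr1:209652467-209652675, chr3:49133119-49133300 and chr20:62367313-62367562 on the minus strand. Capitals mark GC boxes (GGGCGG or its complement CCGCCC).
ITGB1: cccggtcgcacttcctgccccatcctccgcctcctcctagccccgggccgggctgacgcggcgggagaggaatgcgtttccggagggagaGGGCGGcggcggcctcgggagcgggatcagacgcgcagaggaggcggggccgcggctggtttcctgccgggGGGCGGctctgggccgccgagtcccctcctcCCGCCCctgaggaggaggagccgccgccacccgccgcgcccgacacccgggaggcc
ITGAV: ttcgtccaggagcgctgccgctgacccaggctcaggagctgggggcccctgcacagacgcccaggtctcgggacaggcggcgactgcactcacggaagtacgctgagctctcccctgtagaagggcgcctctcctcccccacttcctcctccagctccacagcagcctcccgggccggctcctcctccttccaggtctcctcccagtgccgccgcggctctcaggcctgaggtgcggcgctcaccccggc
LAMB3: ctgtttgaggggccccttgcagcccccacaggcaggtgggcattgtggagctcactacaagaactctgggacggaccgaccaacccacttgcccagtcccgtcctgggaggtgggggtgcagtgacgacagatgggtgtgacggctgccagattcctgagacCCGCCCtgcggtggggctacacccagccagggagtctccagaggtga
LAMB2: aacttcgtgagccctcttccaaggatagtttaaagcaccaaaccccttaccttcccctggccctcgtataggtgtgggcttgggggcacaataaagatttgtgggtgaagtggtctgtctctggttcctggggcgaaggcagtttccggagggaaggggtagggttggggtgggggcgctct
LAMA5: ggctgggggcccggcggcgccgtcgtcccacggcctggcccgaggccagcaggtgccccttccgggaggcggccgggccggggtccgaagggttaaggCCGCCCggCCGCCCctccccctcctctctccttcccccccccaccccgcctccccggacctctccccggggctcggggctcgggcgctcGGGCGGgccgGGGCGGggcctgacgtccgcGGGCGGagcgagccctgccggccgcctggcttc
ITGB1 holds 3 GC boxes in 248 bases, LAMB3 holds 1 in 209 and ITGAV none in 250. LAMB2 holds none in these 182 bases and LAMA5 holds 5 in 250. Before the cut, the 250 bases of LAMB2 hold 1 GC box, so its absence here depends on where the stretch ends. In the uncut 250 bases, ITGAV alone of the genes shown holds none. ITGA6, also above its fold but not shown, holds none in its 250 bases either. The ITGB1 gene has a further start upstream in GENCODE, which this stretch does not cover. Of the 29 subunits, 21 had a promoter in the table, and 12 of these were measured. In the 250 bases upstream, the GC box was found for 9 of 12 (75%), beside 70.3% of 7805 measured protein-coding genes and 42.3% of all 27305 promoters. The letters of the AP-1 site, TGANTCA on either strand, were found for 0 of those 12 and, among the low subunits, for LAMA3, beside 3.42% and 6.60%. A match is a description of the letters, and its absence covers this window only.

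The proteins that work with these subunits were read from 5 lists, and 0 genes of any list passed the size rule in any comparison. Of 36 focal adhesion adaptors and kinases, which link integrin tails to actin, 28 were measured; between L597R and P-Enter the read interval left out 1 for 5 upward and 12 downward, with a median of -0.05. Upward was 28.0% and downward 25.7% of all protein-coding genes. Among the most abundant were the actin crosslinkers FLNA (209, 211 and 201 FPKM) and ACTN1 (56.0, 57.6 and 56.0) and the integrin activator TLN1 (50.3, 50.6 and 48.4). FLNA was 0.960 times P-Enter in L597R (0.946 to 0.975), and the interval of ACTN1 (0.975 to 1.03) held 1. ACTN4, a further actinin singled out after the values were seen, was at 4.41, 3.13 and 1.86 FPKM, a log2 difference of -0.92 that came nearest to the size rule. Against the regression's fold the balance turned, with 9 above, 4 below and a residual median of 0.03. Of all protein-coding genes, 16.5% lay above that fold and 16.8% below. Between WT and P-Enter this list, read against 1, had 3 upward and 4 downward, beside 15.3% and 12.7% of all protein-coding genes. Between L597R and WT it had 6 and 10, beside 24.0% and 17.5%.

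The hemidesmosome proteins and laminin receptors other than integrins had 7 of 10 measured. Between L597R and P-Enter the read interval left out 1 for 1 upward and 5 downward, beside 28.0% and 25.7% of all protein-coding genes. The median difference was -0.17. Against the regression's fold 0 were above and 4 below, beside 16.5% and 16.8% of all protein-coding genes. The residual median was -0.09. RPSA, a ribosomal protein also described as a laminin receptor, was at 404, 398 and 358 FPKM. PLEC, which links ITGB4 to keratin, was at 75.6, 74.9 and 67.6, the tetraspanin CD151 at 66.6, 63.2 and 59.0, and the proteoglycan SDC4 at 59.99, 57.8 and 53.0. All 4 were lowest in L597R. DST, the other keratin linker of hemidesmosomes and the 1 upward gene, was at 8.71, 10.7 and 11.5 FPKM (41.6% GC), and DAG1, the dystroglycan precursor, at 44.9, 42.2 and 35.5; both were named after their values were seen.

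Basement membrane partners of laminin had 7 of 15 measured. Between L597R and P-Enter the read interval left out 1 for 1 upward and 6 downward, beside 28.0% and 25.7% of all protein-coding genes. The median difference was -0.19. In the residuals of the regression the median was -0.09. Against its fold 1 lay above and 4 below, beside 16.5% and 16.8% of all protein-coding genes. FBLN1, a matrix glycoprotein, was at 62.2, 57.0 and 54.0 FPKM, COL18A1 at 24.2, 23.6 and 20.7, and NID1, which bridges laminin to collagen, at 20.7, 20.7 and 19.1. NTN4, a netrin that binds laminin gamma chains, was the upward gene, at 26.9, 29.6 and 31.8. The main network collagens COL4A1 and COL4A2, named after their values were seen, had means of 0.0111 and 0.00891 FPKM. The list's median GC content was 59.5%, and the part of GC content in its direction was not tested.

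Of 27 other integrin ligands, 8 were measured. Between L597R and P-Enter the read interval left out 1 for 2 upward and 2 downward, beside 28.0% and 25.7% of all protein-coding genes. The median difference was 0.06. Against the regression's fold 4 were above and 0 below, beside 16.5% and 16.8% of all protein-coding genes. The residual median was 0.07. CCN1, a matrix protein that binds ITGAV receptors, was at 407, 395 and 386 FPKM and its relative CCN2 at 76.96, 76.0 and 86.2. CCN2 was 1.12 times P-Enter in L597R (1.06 to 1.18). TGFB1, whose latent form carries an RGD motif, was at 61.3, 60.4 and 57.7, and the matrix protein thrombospondin THBS1 at 8.87, 9.49 and 9.79. Of 13 tetraspanins and other surface partners, 11 were measured. Read against 1, 2 were upward and 4 downward, beside the same 28.0% and 25.7%, with a median of -0.02. Against the regression's fold the balance turned here too, with 6 above and 3 below, beside the same 16.5% and 16.8%. The residual median was 0.05. CD63 was at 190.1, 182 and 179 FPKM, BSG at 187, 184 and 179.9, the caveolar protein CAV1 at 121, 124 and 123, and SLC3A2, the heavy chain that binds beta integrin tails, at 84.6, 84.6 and 90.8.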

How the data were processed

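The authors deposited FPKM per Ensembl gene for 3 RNA sequencing libraries, per the file headers. Libraries were made with a stranded mRNA kit, per the labels' protocols, and Trimmomatic, HISAT2, Cufflinks and HTSeq were used on hg38/GRCh38, per the submitters' processing notes. Versions, strand setting and annotation release are not given in the sources used here.

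Whole reads were recovered from the FPKM steps for 22674 of 23379 genes (97.0%), within 1e-05 of a read. Library totals were 13294004, 15665132 and 16603676, and the recovery was tested on simulated data. That simulation took its lengths from the recovery itself, so it cannot show whether a recovered length is the one the authors used. Of the recovered genes, 48.9% kept the annotated length, and the rest took the nearest length that gave whole reads. The recovered reads summed to 100.54%, 100.54% and 100.55% of the totals, so some reads or the totals are inexact. The cause was not tested. Intervals are exact Clopper-Pearson at 95% confidence (scipy 1.17.1), conditional on the sum, and cover counting error only, since reads are not independent molecules. Differences are on the log2(FPKM + 1) scale, which understates those of low genes. The size rule was a difference of at least 1 at a mean of at least 1 FPKM. Symbols were matched for 23330 IDs, and GENCODE 29 for 22807. No count model was fitted, because each group has 1 library.

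The subunits, lists and alternatives were chosen with earlier results of these data known. The text names BRAF, the subunits, and up to 4 genes per list with the highest mean FPKM; others are marked. A few genes that this rule covers, 1 subunit included, are not reported here. Alternatives were the pseudocount, the filter, the fold, 2 rescalings, recovered reads and a regression on GC content, length and level; other gene lengths and the interval against the regression's fold were added after the data were seen.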

Additional observations from a re-analysis of the deposited data

How the results depend on the processing

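The number of subunits past the size rule was 0 in all 3 comparisons under each of these alternatives: pseudocounts of 0.1 and 5, no filter or a mean of at least 5 FPKM, thresholds of 1.5-fold and 4-fold, both rescalings and recovered reads. Of 270 single-gene differences recomputed, 250 moved by less than their counting error. Under the regression only 26 of 45 did so. Among the other alternatives 1 difference moved further, under the pseudocount of 5. Signs turned only under the regression. At 3 decimals this held for 7 of its 45 values, all of genes whose interval held 1. They were ITGA5 in each comparison (-0.03 to 0.01, -0.09 to 0.04 and -0.06 to 0.02), ITGB4 for WT against P-Enter, and ITGA6, ITGB2 and LAMB1 for L597R against WT. ITGB5 for L597R against WT, whose interval left out 1, went from -0.08 to 0.000. Its unrounded value lay just above 0, so its sign turned too. The regression also moved ITGAV for L597R against P-Enter from 0.54 to 0.25 and ITGA3 from -0.31 to -0.16; the cause was not tested. Gene length moved ITGB1 in P-Enter from 76.6 to 185.5 FPKM with exon lengths and 294.7 with the longest coding transcript. No paired analysis was possible because each group has 1 library without a replicate number. The median for L597R against WT, -0.01 as deposited, was 0.01 without the filter and 0.02 after the regression, so its sign is not fixed. The 14 subunits under 1 FPKM had at most 100 reads in any library, which limits what their ratios can show.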
